A study of Mus musculus with 6 samples.

Results

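The genes described here are the matrix metalloproteinases (MMPs), the ADAMTS proteases and the ADAMTS-like (ADAMTSL) proteins of the mouse, measured in whole testis with and without TAp73. They were chosen by symbol, as every gene named Mmp, Adamts or Adamtsl with a number, except Mmp23, and by the transcript accession that the array gives for each probe. Of 46 such genes in the RefSeq table of assembly GRCm38.p6, 43 had at least 1 probe on the array, among 19751 gene symbols in all. These were 21 of 22 MMP genes, all 19 ADAMTS genes and 3 of 5 ADAMTSL genes, read by 57 probes. Mmp27, Adamtsl3 and Adamtsl5 had no probe carrying their name.

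The mice were male C57BL/6J animals, 10 weeks old, with a TAp73 knockout (TAp73KO, 3 mice) or wild type (WT, 3 mice). Each testis RNA was hybridised to 1 single-colour Agilent array. TAp73 is the form of p73, a protein of the p53 family, that carries the transactivation domain; its gene is Trp73. The sources used here do not say how the allele was made or in which cells it acts. The study's subject is the adhesion and maturation of germ cells in the testis. Whole testis was taken, so that germ cells, Sertoli cells and interstitial cells were read together, and a lower signal from fewer cells of a type and one from less RNA per cell cannot be told apart.

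Both families are zinc-dependent endopeptidases that are made as inactive proenzymes. MMPs cleave collagens, laminins and other proteins of the extracellular matrix and the cell surface, and the tissue inhibitors of metalloproteinases (TIMPs) block their active site. ADAMTS enzymes are secreted, carry thrombospondin repeats that tether them to the matrix, and cut proteoglycans, procollagens or single blood and microfibril proteins. ADAMTSL proteins have the same repeats but no protease domain. In the testis, proteases and their inhibitors act at the tubule wall and at the junctions between Sertoli cells and germ cells, which are taken apart and rebuilt as germ cells move towards the lumen.

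Some facts of the arrays bear on every value below. Between 74.4% and 84.4% of the 39429 probes of an array were well above background, with the lowest share in WT replicate 1. On that array alone 1536 tested probes were below this limit. TAp73KO replicate 1 stood apart, with a score of -66.2 on the first principal component where the other arrays had -4.9 to 30.8. The authors also deposited a value table whose group labels oppose those of the scanner files: 6 of 6 scanner arrays matched a table column of the opposite group, at correlations of 0.97 to 0.99 over probes, against -0.40 to -0.27 with the column of their own label. The scanner files' labels were used. Under them the targeted gene was low in the mice labelled knockout: probe A_55_P1988133 of Trp73 read 0.76, 0.69 and 0.53% in TAp73KO testes and 6.64, 5.95 and 5.55% in WT testes (log2 difference -3.21, adjusted p = 0.00213 in limma's fit over all 31801 tested probes), in percent of each array's 75th percentile signal. This unit is used for every level below. The other tested Trp73 probes were also lower, at log2 differences of -6.01 (A_52_P193555, adjusted p = 0.00369, with 1 of 3 knockout arrays above the background limit) and -0.99 (A_52_P410636, adjusted p = 0.0104). The sources used here do not say which of these probes lie in the deleted part of the gene. Markers listed for testis cells were measured, among them 13 of 13 Sertoli cell genes and 7 of 7 spermatid genes.

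Of the 43 genes on the array, 28 had a tested probe, meaning one with 3 or more of the 6 arrays well above background. By subfamily, 16 of 19 ADAMTS genes were tested, as were the 3 ADAMTSL genes on the array, and 9 of 21 MMP genes. Another 10 genes were not well above background on any array. These were Mmp1a and Mmp13 (collagenases), Mmp8 (the collagenase of neutrophils), Mmp3 (stromelysin-1), Mmp9 (gelatinase B), Mmp20 (the enamel protease), Mmp15 and Mmp16 (membrane-type enzymes), Mmp21 and Adamts6. The last 5, Mmp7, Mmp12, Mmp1b, Adamts3 and Adamts13, were well above background on 1 or 2 arrays.

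Several of the dark genes lie side by side in the genome. Mmp7, Mmp20, Mmp27, Mmp8, Mmp10, Mmp1a, Mmp3, Mmp1b, Mmp12 and Mmp13 follow each other on chromosome 9 in the RefSeq order, 10 neighbours of which 9 had a probe, 1 was tested and 5 were dark on every array. The tested one was Mmp10, stromelysin-2. It read 0.78, 0.64 and 0.94% in TAp73KO testes, against 0.95, 1.03 and 0.62% in WT testes, with a log2 difference of -0.12 (SE 0.23, adjusted p = 0.756). The groups overlapped and all 6 values lay close to the background limit: 3 of 3 TAp73KO and 2 of 3 WT arrays passed it. The chromosome 9 genes also share features of sequence near their start, for which promoter windows of 300 bases around the start were read from the RefSeq promoter table (GRCm38.p6). The letters TGANTCA of an AP-1 site, on either strand, stood in 8 of 12 windows of this run and in 0 of 21 windows of the other family genes, against 7.8% of all 32851 windows in the table. The TATA box letters TATAAA stood in 9 of 12 and in 3 of 21 windows, against 13.6% of all. A p53 half-site, searched by its consensus, was in 4 of 33 windows (Adamts13, Adamtsl4, Mmp13 and Mmp24), against 8.4% of all. These windows belong to 31 of the 46 genes. A match is a run of letters and no evidence of binding. The window of Mmp10 (chr9:7502092-7502391, plus strand) and of its dark neighbour Mmp13 (chr9:7272264-7272563, plus strand) are printed because they hold such matches, and those of Mmp11 (chr10:75932453-75932752, minus strand) and Adamts1 (chr16:85803064-85803363, minus strand) because these genes are described below. Capitals mark an AP-1 site, a TATA box or, as the first match in Mmp13, a p53 half-site; the motifs do not overlap here, and Mmp11 holds no match of the letters searched.
Mmp10: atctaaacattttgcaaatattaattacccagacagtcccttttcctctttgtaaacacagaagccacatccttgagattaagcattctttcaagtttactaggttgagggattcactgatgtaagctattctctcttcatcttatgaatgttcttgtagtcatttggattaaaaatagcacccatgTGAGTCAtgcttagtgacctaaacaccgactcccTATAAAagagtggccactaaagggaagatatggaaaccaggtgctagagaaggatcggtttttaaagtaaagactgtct
Mmp13: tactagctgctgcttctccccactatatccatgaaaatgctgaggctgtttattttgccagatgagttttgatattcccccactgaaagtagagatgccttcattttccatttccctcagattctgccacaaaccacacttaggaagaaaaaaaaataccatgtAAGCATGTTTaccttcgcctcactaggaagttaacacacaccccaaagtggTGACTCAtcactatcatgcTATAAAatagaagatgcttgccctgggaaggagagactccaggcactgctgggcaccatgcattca
Mmp11: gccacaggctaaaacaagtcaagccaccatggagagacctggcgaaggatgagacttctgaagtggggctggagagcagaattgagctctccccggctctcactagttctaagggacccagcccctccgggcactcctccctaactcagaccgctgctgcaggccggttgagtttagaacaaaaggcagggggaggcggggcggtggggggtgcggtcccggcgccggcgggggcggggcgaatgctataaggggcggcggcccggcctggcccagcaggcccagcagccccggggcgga
Adamts1: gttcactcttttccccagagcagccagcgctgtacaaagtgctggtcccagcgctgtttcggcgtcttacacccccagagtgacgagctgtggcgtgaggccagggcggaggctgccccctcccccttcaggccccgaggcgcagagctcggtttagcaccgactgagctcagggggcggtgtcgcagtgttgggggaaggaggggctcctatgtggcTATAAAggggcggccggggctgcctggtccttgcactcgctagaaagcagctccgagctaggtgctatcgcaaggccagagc

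Over the 28 tested genes, 1 was lower in TAp73KO testes at an adjusted p under 0.05 and 0 were higher. Of all 17041 tested genes 3.73% passed this threshold, 3.52% lower and 0.217% higher, and over probes the share was 2.88%. Without adjustment, 5 of the 28 were lower and 3 higher at p under 0.05, against 13.5% and 12% of all genes. The 3 arrays of each group did not overlap for 5 genes lower and 5 genes higher in TAp73KO testes, against 16% and 19.2% of all genes. Signs were mixed, 15 negative and 13 positive, against 7184 negative and 9857 positive over all genes. The median log2 difference was -0.04, against 0.05 over all genes. These counts were near the shares found over all genes. The 28 genes were dimmer and more variable than all genes, which limits this comparison. Their median level was 2.7% against 45.9%, and their median SD within a group was 0.192 against 0.125 on the log2 scale. By subfamily, the median was -0.11 for the 9 MMPs, -0.05 for the 16 ADAMTS genes and 0.00 for the 3 ADAMTSL genes.

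**Figure D1:**
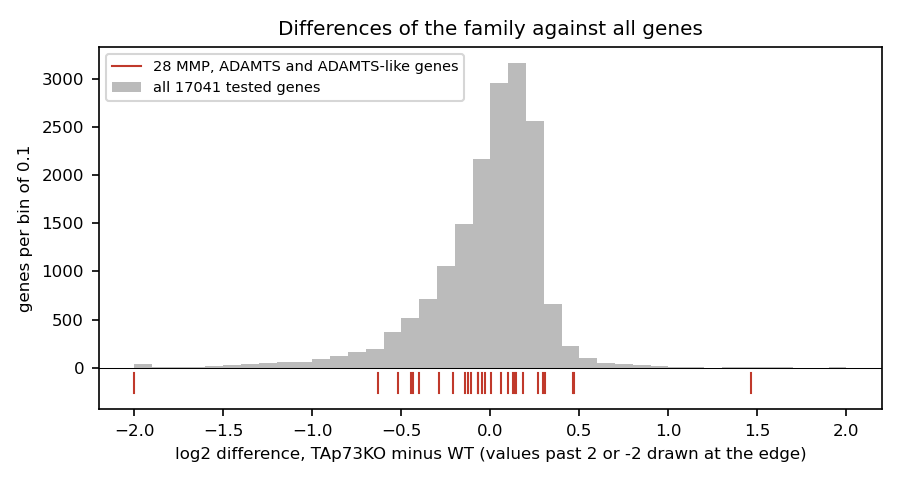
Distribution of the log2 difference, TAp73KO minus WT, over all tested genes (grey bars, genes per bin of 0.1) with the 28 family genes as red ticks below the axis. Values past 2 or -2 are drawn at the edge, and most ticks lie within 0.5 of 0.

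The gene that passed the test was Mmp11, stromelysin-3, an enzyme that is activated inside the cell by furin and cuts few of the large matrix proteins. Probe A_55_P1989698 read 27.0, 29.2 and 30.1% in TAp73KO testes, against 38.0, 41.0 and 37.7% in WT testes. Every knockout value lay below every WT value. The means were 28.7 ± 1.59% in TAp73KO testes and 38.9 ± 1.86% in WT testes (SD, n = 3 each), a 1.35-fold lower level (log2 difference -0.44, SE 0.08, 95% interval -0.63 to -0.25, adjusted p = 0.0480). The second probe of the gene, A_66_P105075, read 11.0, 11.0 and 12.6% in TAp73KO testes and 16.4, 16.4 and 14.4% in WT testes, again without overlap. Its log2 difference was -0.45 (SE 0.09), of the same size, with an adjusted p of 0.0657. The call stood close to the threshold: it was lost on leaving out any 1 of the 6 mice (log2 difference -0.47 to -0.39, adjusted p = 0.0906 to 0.178) and with slide as a block (adjusted p = 0.0787). Within slide 1 the difference was -0.43 (2 mice of each group) and within slide 2 it was -0.45 (1 of each).

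Mmp2, gelatinase A, cuts the type IV collagen of basement membranes and read 1.65, 1.65 and 1.98% in TAp73KO testes, against 1.97, 2.59 and 2.43% in WT testes (log2 difference -0.40, SE 0.13, adjusted p = 0.163). The ranges met, at 1.98% in a knockout and 1.97% in a WT mouse. Mmp19, an enzyme found in many tissues, read 1.93, 1.80 and 2.43% in TAp73KO testes and 2.50, 2.82 and 3.02% in WT testes (log2 difference -0.44, SE 0.14, adjusted p = 0.141). Its groups did not overlap, but the difference did not pass the test. Mmp28, epilysin, was listed at 1.28 to 1.45% in TAp73KO testes and 1.16 to 1.26% in WT testes (log2 difference 0.19, adjusted p = 0.228).

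The membrane-type MMPs are held at the cell surface, where Mmp14 cuts collagen and converts the proenzyme of Mmp2 to its active form. Mmp14 read 13.7, 14.9 and 13.8% in TAp73KO testes, against 15.5, 16.2 and 14.0% in WT testes (log2 difference -0.11, 95% interval -0.32 to 0.10, adjusted p = 0.472). Mmp25, which is attached through a lipid anchor, read 1.88, 1.45 and 1.36% in TAp73KO testes and 1.12, 0.95 and 1.34% in WT testes (log2 difference 0.47, SE 0.17, adjusted p = 0.191). Its groups were apart only by the narrow gap between 1.36 and 1.34%. Mmp17, which has the same kind of anchor, stood at 10.20 to 11.05% in TAp73KO testes and 9.37 to 10.17% in WT testes (log2 difference 0.10, adjusted p = 0.445). For Mmp24 the 2 tested probes differed in sign, at log2 differences of 0.27 and -0.17, and neither passed the test. None of these 4 genes changed at the threshold.

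**Figure D2:**
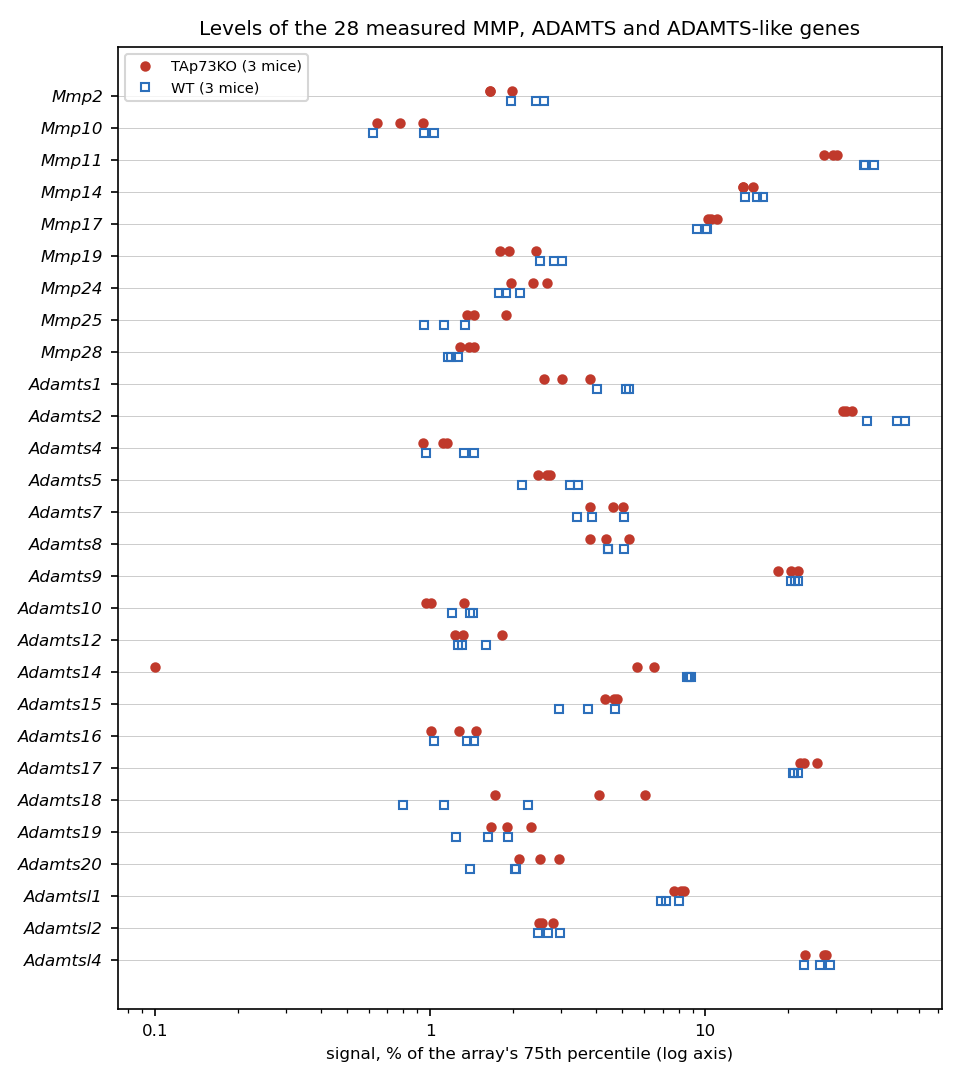
Signal of each tested MMP, ADAMTS and ADAMTSL gene by mouse, in percent of the array's 75th percentile on a log axis. Filled circles are the 3 TAp73KO mice and open squares the 3 WT mice; for Mmp11 the circles sit at 27.0 to 30.1% and the squares at 37.7 to 41.0%, and levels of different genes are from different probes and are not to be compared.

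Adamts2 and Adamts14 remove the amino-terminal propeptide of fibrillar procollagens. Adamts2 read 34.2, 31.6 and 32.4% in TAp73KO testes, against 38.82, 50.02 and 53.05% in WT testes. The groups did not overlap, and WT replicate 1 lay nearest to the knockouts. The log2 difference was -0.52 (SE 0.13, 95% interval -0.83 to -0.20, adjusted p = 0.0966), and without WT replicate 1 it was -0.65 (adjusted p = 0.0424), the one setting in which Adamts2 was called and not Mmp11. A dimmer second probe of Adamts2 gave -0.41 (adjusted p = 0.252).

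For Adamts14 a single array set the value. Probe A_55_P1978316 read 0.10, 6.52 and 5.64% in TAp73KO testes, against 8.71, 8.56 and 8.87% in WT testes, and the low reading was that of TAp73KO replicate 1. The log2 difference of -2.49 had an SE of 1.58 and a 95% interval of -6.31 to 1.32 (adjusted p = 0.361). Without that mouse it was -0.52 (adjusted p = 0.0717). The other tested probe, A_52_P156763, did not show the low reading, with 4.32, 3.43 and 3.13% in TAp73KO testes and 3.23, 3.30 and 3.67% in WT testes (log2 difference 0.08). Adamts3, which shares the procollagen role, was well above background on 1 array and was not tested.

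The ADAMTS enzymes that cut large proteoglycans were Adamts1, Adamts4, Adamts5, Adamts8, Adamts9, Adamts15 and Adamts20, and 0 of these 7 passed the test. Adamts1, which cuts versican and is known for its part in ovulation, had the lowest adjusted p among them. It read 3.80, 2.59 and 3.02% in TAp73KO testes and 5.16, 5.28 and 4.04% in WT testes, without overlap (log2 difference -0.63, SE 0.17, adjusted p = 0.114). Its promoter window, printed above, holds a TATA box. Adamts5, the aggrecanase that neighbours it on chromosome 16, read 2.73, 2.47 and 2.65% in TAp73KO testes and 3.23, 3.45 and 2.16% in WT testes (log2 difference -0.14, SE 0.18, adjusted p = 0.646). The WT mice spanned the knockout range on both sides. Adamts20, known in mice from a coat spotting mutant, read 2.11, 2.94 and 2.51% in TAp73KO testes and 1.40, 2.06 and 2.03% in WT testes (log2 difference 0.47, SE 0.19, adjusted p = 0.215). The remaining 4 had log2 differences of -0.21 (Adamts4), -0.07 (Adamts8), -0.07 (Adamts9) and 0.30 (Adamts15), with overlapping groups. A second probe of Adamts8 gave -0.35, and one of Adamts5 gave -0.19.

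Among the other ADAMTS genes Adamts18, a close relative of Adamts16, had the largest positive difference of the 28 tested. It read 6.03, 1.72 and 4.10% in TAp73KO testes, against 0.80, 1.12 and 2.27% in WT testes, where 2 of 3 arrays were well above background. The knockout mice varied widely, with an SD of 0.93 on the log2 scale, and the ranges overlapped. The log2 difference of 1.46 had an SE of 0.56 and an adjusted p of 0.199. Adamts17, in which inherited loss causes a microfibril disorder in people, read 25.6, 22.1 and 22.8% in TAp73KO testes and 21.1, 20.8 and 21.8% in WT testes (log2 difference 0.14, adjusted p = 0.320). Its second probe, A_66_P124114, was again low on TAp73KO replicate 1, at 4.74, 14.1 and 16.1% in TAp73KO testes and 13.5, 13.2 and 12.5% in WT testes, and gave -0.35. Adamts10, linked to the same microfibrils, had a log2 difference of -0.29 (adjusted p = 0.268), Adamts16 one of -0.03 and Adamts19 one of 0.31 (adjusted p = 0.357). Adamts7 and Adamts12, which cut cartilage oligomeric matrix protein, had differences of 0.13 and 0.06.

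**Figure D3:**
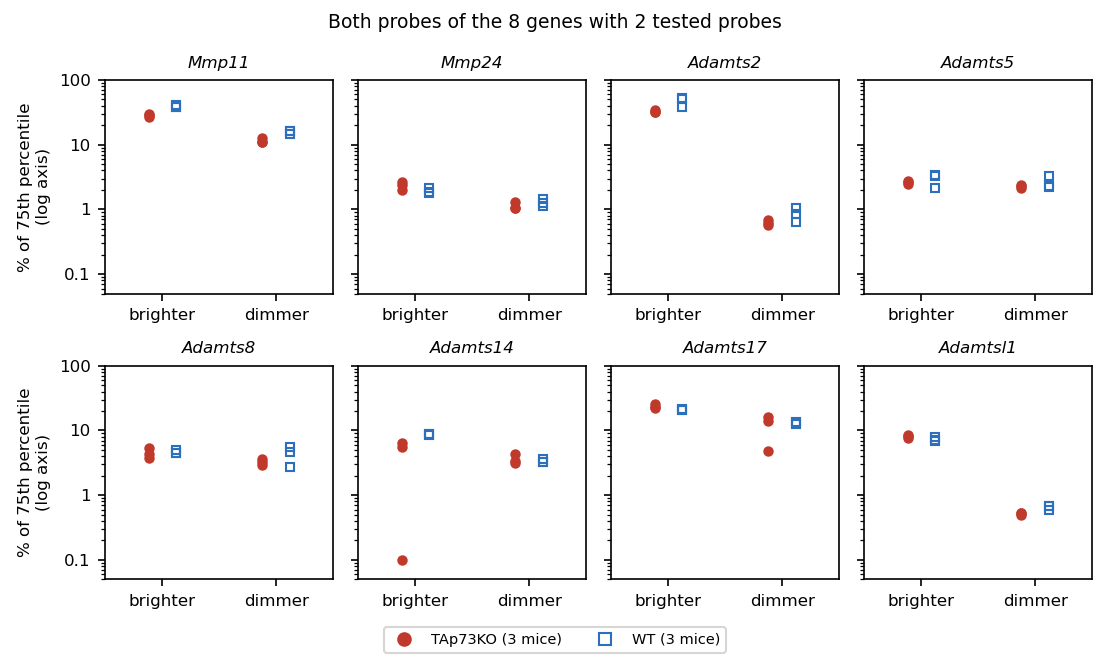
Signal of both tested probes for the 8 genes that had 2, in percent of the array's 75th percentile on a log axis, with filled circles for TAp73KO and open squares for WT mice (3 each). Both probes of Mmp11 separate the groups, and the single low circles of Adamts14 (0.10%) and Adamts17 (4.74%) belong to TAp73KO replicate 1.

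The ADAMTS-like proteins lack a protease domain, and several bind microfibrils. Adamtsl4, which is needed for the fibres that hold the lens, read 27.1, 23.1 and 27.5% in TAp73KO testes and 28.5, 26.2 and 22.9% in WT testes (log2 difference 0.00, 95% interval -0.28 to 0.29, adjusted p = 0.987). Adamtsl2 differed by -0.05 (95% interval -0.28 to 0.19). For Adamtsl1 the brighter probe differed by 0.14, while the dimmer one, A_55_P2180919, read 0.50, 0.53 and 0.54% in TAp73KO testes and 0.68, 0.69 and 0.60% in WT testes (log2 difference -0.32, adjusted p = 0.109). That dimmer probe lay close to the background limit, which 1 of 3 TAp73KO and 2 of 3 WT arrays passed. No ADAMTSL gene passed the test by either probe.

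**Figure D4:**
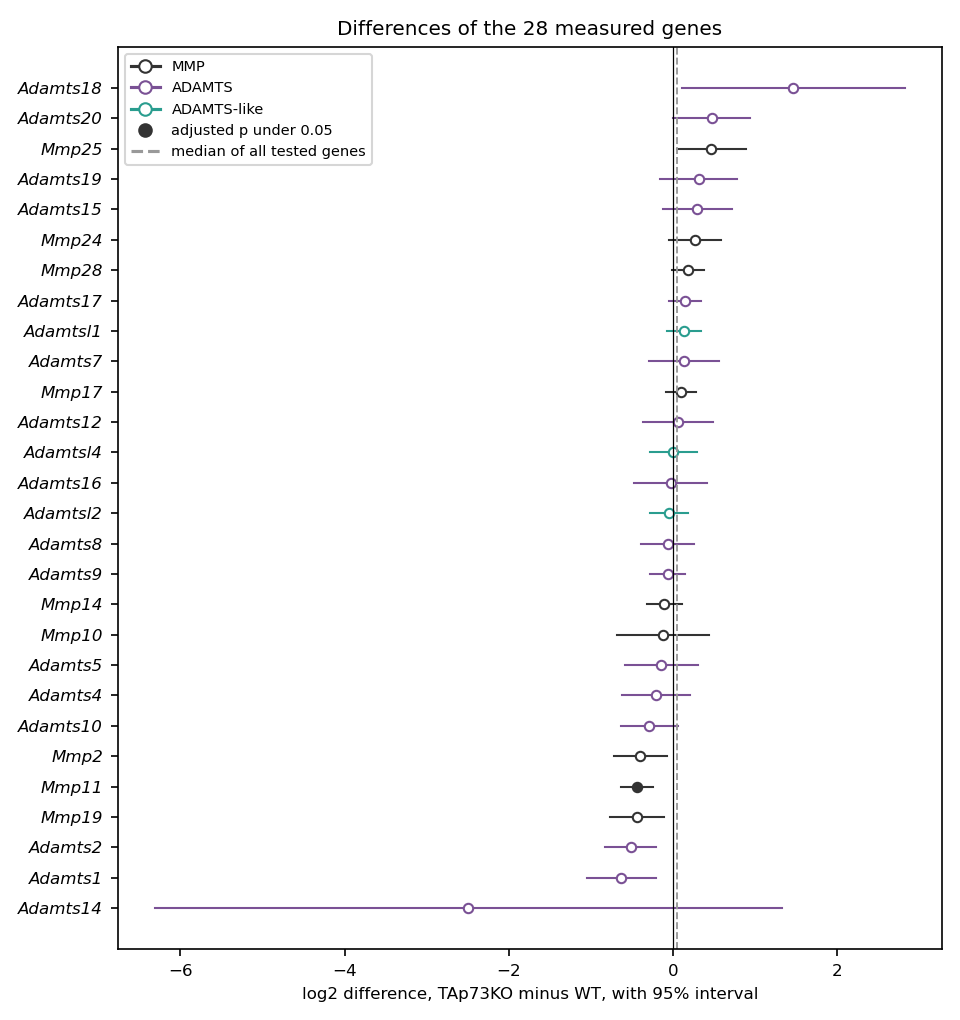
Log2 difference, TAp73KO minus WT, of each of the 28 tested genes with its 95% interval, coloured by subfamily; a filled point marks an adjusted p under 0.05 and the dashed line is the median of all tested genes. Mmp11 is the one filled point, and Adamts14 has the widest interval, from -6.31 to 1.32.

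Genes that were not tested gave single readings only. Mmp12, the macrophage elastase, did not pass the background limit on any knockout array, at 0.14, 0.67 and 0.31%, and passed it on 2 of 3 WT arrays, at 0.45, 1.10 and 0.70%; these values come from probe A_55_P2024803, and the groups overlapped. Its other probe, A_55_P2105783, was dark on every array, at 0.07 to 0.12% in TAp73KO testes and 0.11 to 0.21% in WT testes. For Adamts13, which cuts von Willebrand factor, the probes differed: A_52_P400831 was well above background in WT replicate 3 alone, at 4.26% against 0.10 to 0.22% in the other mice. A_55_P1967712 was so in TAp73KO replicate 1 alone, at 0.36%, and read 0.25% in WT replicate 3. Mmp9 was dark throughout, at 0.15 to 0.18% in TAp73KO testes and 0.23 to 0.36% in WT testes.

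Genes that restrain, activate or clear these proteases were taken from a list of 20, of which 17 were tested: 3 were lower in TAp73KO testes, 0 were higher and 14 did not pass, with a median log2 difference of -0.05. Over all tested genes 3.52% were called lower and 0.217% higher, and the median was 0.05. Timp1, which inhibits most MMPs, read 8.51, 6.31 and 7.19% in TAp73KO testes, against 111.6, 96.2 and 110.0% in WT testes, a 14.5-fold lower level (log2 difference -3.86, SE 0.13, adjusted p = 0.000863). The groups lay far apart, and the call was kept on leaving out any 1 mouse (adjusted p = 0.00097 to 0.0142). Furin, the convertase that activates Mmp11 and Mmp14, read 53.8, 60.9 and 56.9% in TAp73KO testes and 80.5, 75.5 and 80.0% in WT testes (log2 difference -0.46, SE 0.08, adjusted p = 0.0407). Lrp1, the endocytic receptor that clears several MMPs and ADAMTS enzymes, read 50.4, 53.8 and 49.8% in TAp73KO testes and 72.0, 81.0 and 67.6% in WT testes (log2 difference -0.52, SE 0.09, adjusted p = 0.0458). The calls of Furin and Lrp1 were lost on leaving out any 1 mouse (adjusted p = 0.0823 to 0.142 and 0.0831 to 0.155). Timp2, Timp3 and Timp4 had log2 differences of -0.40 (1 knockout value missing), -0.23 and 0.31, and Pcsk6, another convertase, one of 0.59 (adjusted p = 0.112).

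Of 30 listed matrix substrates 29 were tested, of which 4 were lower, 0 were higher and 25 did not pass, with a median log2 difference of -0.19. The shares over all tested genes were 3.52% lower and 0.217% higher, with a median of 0.05. Ltbp1, which stores latent TGF-beta in the matrix, read 9.57, 14.6 and 12.3% in TAp73KO testes and 26.1, 28.8 and 32.4% in WT testes (log2 difference -1.27, SE 0.17, adjusted p = 0.0211). Bgn (biglycan), Dcn (decorin) and Thbs1 (thrombospondin-1) had log2 differences of -0.69, -0.70 and -0.56. Of the 29 differences 23 were negative and 6 positive, against 7184 and 9857 over all tested genes. Groups did not overlap for 9 substrates lower and 2 higher in TAp73KO testes, against 16% and 19.2% of all genes. The 4 called genes were among the 9. The 2 higher ones were Bcan (brevican, 0.80, adjusted p = 0.257) and Comp (cartilage oligomeric matrix protein, 0.27, adjusted p = 0.137), the latter saturated on 3 arrays. With 1 mouse left out the list had 0 to 2 called genes, 1 without TAp73KO replicate 1, 2 without WT replicate 1 and 0 without any of the others. No collagen or laminin chain passed the test, with log2 differences of -0.58 (Lamc1, adjusted p = 0.0513) to -0.03 (Lama2). Among these chains the groups did not overlap for Lamc1, Col4a2 (-0.38, adjusted p = 0.175) and Col18a1 (-0.29, adjusted p = 0.200). Vcan, a proteoglycan that ADAMTS enzymes cut, had -0.06.

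Cell markers were read in the same way, beside shares over all tested genes of 3.52% called lower and 0.217% called higher. Over all tested genes 7184 differences were negative and 9857 positive. Of 10 tested macrophage genes 4 were lower, 0 were higher and their median log2 difference was -0.52, with summed levels of 349 to 390% in TAp73KO testes against 525 to 586% in WT testes. Fibroblast and stromal genes had 2 of 6 lower (summed 664 to 772% in TAp73KO testes against 924 to 1141% in WT testes). Dcn, already counted among the substrates above, was 1 of these 2, with means of 430% in TAp73KO and 699% in WT testes. Dcn makes up much of the stromal sum, and the separation of these sums rests on it. The 6 differences had a median of -0.24. Sertoli cell genes had 4 of 13 lower (3420 to 3727% in TAp73KO testes against 4041 to 4468% in WT testes). Peritubular myoid genes had 1 of 6 lower, and their sums overlapped, at 967 to 1044% in TAp73KO testes against 899 to 1210% in WT testes. Endothelial genes had 1 of 7 lower, Leydig cell genes 1 of 6 and epididymal genes 1 of 3, with Lcn5 and Lcn8 dark on all arrays. The endothelial sums were 364 to 408% in TAp73KO testes against 414 to 443% in WT testes. That separation rests on the 1 called endothelial gene, with means of 12.7% in TAp73KO and 88.8% in WT testes. The 7 endothelial differences had a median of -0.17, with 5 negative and 2 positive. The Leydig cell sums overlapped, at 1246 to 2266% in TAp73KO testes against 1759 to 2857% in WT testes. They hold 1 widely varying gene, at 295 to 1300% in TAp73KO and 658 to 1406% in WT testes. Of the 6 Leydig cell differences 5 were negative and 1 was positive. Of the germ cell genes 0 were called among 5 spermatogonia, 5 spermatocyte and 7 spermatid genes. Spermatogonia sums were 327 to 382% in TAp73KO testes against 388 to 496% in WT testes, and spermatocyte sums were 2629 to 2768% in TAp73KO testes against 2166 to 2328% in WT testes, both without overlap. Of the 5 spermatogonia differences 4 were negative and 1 was positive. The positive one was the dim Gfra1, at 2.16 to 2.63% in TAp73KO and 1.67 to 2.12% in WT testes (log2 difference 0.32, adjusted p = 0.198). Spermatid sums overlapped, at 7807 to 9737% in TAp73KO testes against 7038 to 8014% in WT testes; Prm1, Prm2, Tnp1, Tnp2 and Odf1 in them were saturated on 4 or 5 arrays, as was Clu of the Sertoli cell list on 6. The tested blood cell genes, Hba-a1 and Alas2, had 0 called and log2 differences of -0.65 and -0.20, with sums of 302 to 515% in TAp73KO testes against 460 to 630% in WT testes. Neutrophil or mast cell genes had 0 called, with S100a8 and S100a9 dark on all arrays. With 1 mouse left out, an alternative chosen after seeing the data, the lower calls were 1 to 4 for macrophage genes, 0 to 3 for Sertoli cell genes, 0 to 1 for stromal, Leydig cell and epididymal genes, 1 for endothelial genes and 0 for peritubular myoid genes. The part of these cell types in the levels of Mmp11, Adamts2 and the other family genes was not tested.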

How the data were processed

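Testis RNA of 3 TAp73KO and 3 WT mice, 10 weeks old, was read on 1-colour Agilent arrays, 1 per mouse, so the number of arrays limits the precision. The authors deposited spot intensity from Feature Extraction 10.7.3.1 on a design of mouse build mm9, per the file headers; the background-subtracted processed signal was used. The submitters' processing notes name limma, without a version. The deposited value table holds intensity with column medians of 554 to 554.2; its scale is linear, and the sources used here do not say how it was normalized.

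Control spots and outlier spots (163 to 280 per array) were left out, saturated spots were kept, spots of a probe were averaged on the log2 scale, and the 75th percentile of each array was taken off. Probes were named through RefSeq accessions (GRCm38.p6), which gave 26055 of 39429 probes 1 symbol. Tested probes had 3 or more of the 6 arrays well above background and 2 or more values per group: 31801 probes, and 17041 genes, each by its brightest tested probe. Groups were compared by a two-sided moderated test with no covariate (lmFit, then eBayes, of limma 3.58.1 under R 4.3.3), with Benjamini-Hochberg adjustment over all tested probes and 0.05 as the threshold. The test was tried on simulated data. Intervals are 95% intervals of the moderated test.

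Genes were named by a rule: Trp73, family genes called by any probe, the 26 tested family genes with the smallest p, the highest and lowest of each role group, genes whose probes differ in sign, and genes with no tested probe. The rule also picked from each other list up to 4 called genes or, with none called, 2 with the smallest p. Of the marker lists only some of these are named, and the lists are given mainly as counts and sums. Vcan, Bcan, Comp, Lamc1, Lama2, Col4a2, Col18a1, Pcsk6, other TIMPs and dark or saturated markers were added after their values were seen. The family and the gene lists were chosen with earlier results of these data known. The alternatives were other scalings, normexp background correction with an offset of 50 (on the median spot signal and local background, the columns at hand), other filters on dim probes, the slide and the replicate number as blocks, single slides, single mice left out, and the value table. One marker gene is not reported here.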

Additional observations from a re-analysis of the deposited data

How the results depend on the processing

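The 1 family call stood near the threshold, and the counts of called probes varied widely with the processing. The counts of called probes, 838 lower and 79 higher in TAp73KO testes, were 116 to 420 and 7 to 28 on leaving out 1 mouse, 299 and 15 with slide as a block, 349 and 13 with no filter on dim probes, and 0 and 0 both with normexp before the 75th percentile and in slide 1 alone. Quantile normalization gave 217 higher, median scaling 143 higher, the filter on all 6 arrays 165 higher, and normexp with quantile normalization 405 lower. The value table under its own, opposite labels gave 217 lower and 877 higher. The count of 1 lower family gene was 0 under median scaling, no filter, normexp with the 75th percentile, slide 1 alone and slide as a block, and 0 to 1 on leaving out 1 mouse; under the value table's labels 0 were lower and 1 was higher, Mmp11 at 0.3983. The replicate numbers did not pair the mice (correlations of same-numbered deviations -0.03, -0.08 and -0.09), and the replicate block gave 9 probes lower and 1 higher, 0 family genes, 1 gene of the inhibitor list and 0 of the substrate list. The 3 lower inhibitor list genes were 1 with median scaling, no filter, slide as a block or any 1 mouse left out, and 0 with normexp and the 75th percentile or slide 1 alone. The 4 lower substrate genes were 0 with no filter, normexp and the 75th percentile or slide 1 alone, 1 with normexp and quantile normalization or slide as a block, and 0 to 2 with 1 mouse left out. The family median of -0.04 was 0.47 with normexp and the 75th percentile, where the median of all genes was 0.16, and 0.0608 in slide 1; the subfamily medians under that normexp setting were 0.39 (MMP), 0.55 (ADAMTS) and 0.40 (ADAMTSL), and the MMP median was -0.38 with no filter. Differences that changed sign, with no cause tested, were under normexp and the 75th percentile Adamts1 0.0194, Adamts10 0.64, Adamts16 0.72, Adamts4 0.61, Adamts5 0.44, Adamts8 0.46, Adamts9 0.0915, Adamtsl2 0.56, Mmp10 0.77, Mmp14 0.0957, Mmp19 0.37 and Mmp2 0.39. With normexp and quantile normalization they were Adamts16 0.0154, Adamts8 0.0236, Adamts9 0.0129 and Adamtsl2 0.0477, with median scaling Adamts16 0.0327 and Adamtsl2 0.0167, and with quantile normalization Adamts8 1e-04 and Adamtsl2 0.0149. In slide 1 they were Adamts16 0.21, Adamts8 0.11, Adamtsl2 0.0567 and Adamtsl4 -0.0297, and in slide 2 Adamts12 -0.0311, Adamts15 -0.0183, Adamts19 -0.0134 and Adamts7 -0.0311. On leaving out 1 mouse the ranges were -0.11 to 0.17 for Adamts12, -0.18 to 0.11 for Adamts16, -0.19 to 0.0427 for Adamts8, -0.12 to 0.0022 for Adamts9, -0.11 to 0.0221 for Adamtsl2, -0.082 to 0.084 for Adamtsl4 and -0.35 to 0.0183 for Mmp10.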
